A study of Homo sapiens with 26 samples.

Results

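ZFP36, ZFP36L1, ZFP36L2, BTG1, BTG2, BTG3, TOB1 and TOB2 encode adaptors that bring the enzymes of mRNA deadenylation to messenger RNAs. These 8 genes were taken by name, and each matched 1 of the 63086 genes counted in every library. All 8 passed the filter on low levels and were among the 9099 protein-coding genes tested. The cells were HCT116, derived from a human colorectal carcinoma, and poly(A) RNA of their cleared lysates was sequenced in 24 libraries of 4 populations and in a pair of parental libraries. All 4 populations carried mCherry-IGF2BP1 from a lentivirus, disruptions of IGF2BP2 and IGF2BP3, and Tet-OsTIR1-PURO, a conditionally expressed plant F-box protein with a puromycin marker. Their IGF2BP1, an RNA-binding protein that stabilizes selected mRNAs, was wild type (WT), S181E, Y396E or RQ. S181E and Y396E mimic phosphorylation in its disordered linkers, and RQ replaces arginines of linker 1 by glutamine. Each population was kept in PBS as control or in 500 µM sodium arsenite, an oxidative stressor, for 2 h, with 3 independently plated dishes per group. Each population was 1 pool sorted through a narrow mCherry gate, so a mutation and the history of its pool cannot be told apart.

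mRNA decay usually begins with the shortening of the poly(A) tail by the CCR4-NOT complex. ZFP36 (tristetraprolin) and its paralogs ZFP36L1 and ZFP36L2 are zinc-finger proteins that bind AU-rich elements in 3′ UTRs and recruit CCR4-NOT to them. The BTG and TOB proteins bind the CNOT7 and CNOT8 deadenylases of that complex, and TOB1 and TOB2 also bind the poly(A)-binding protein PABPC1. ZFP36 and BTG2 are known as immediate early genes, which cells switch on rapidly after growth signals or stress, and BTG2 is also a known target of p53.

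The RNAs of the ZFP36 family and of several BTG and TOB genes hold the AU-rich motif themselves. The heptamer TATTTAT, read on the RNA strand, occurred in the 3′ UTRs of 7 of the 8 genes (GENCODE 44 canonical transcripts). It was present in 35.9% of the 9081 tested genes with an annotated 3′ UTR, and 6.70% held 3 or more. ZFP36, ZFP36L1 and ZFP36L2 held 3 each, in 3′ UTRs of 708, 1871 and 1917 bases, and BTG3 held 2 in 440 bases. BTG1, BTG2 and TOB2 held 1 each in 3802, 2164 and 2817 bases, and TOB1 none in 757 bases, although its 3′ UTR had 4 ATTTA pentamers. The 30 bases around the sites of the 3 ZFP36 genes and of BTG3 are given in DNA letters, 5′ to 3′, because they are the kind of sequence that ZFP36 proteins bind. The heptamers are in capitals. The window with the most heptamers was taken, among equal ones that with the most ATTTA pentamers, and then the first. It was then centred on its heptamers.
ZFP36, chr19:39409188-39409217 (+): ccttTATTTATgacgacttTATTTATtcta
ZFP36L1, chr14:68788336-68788365 (-): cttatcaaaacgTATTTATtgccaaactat
ZFP36L2, chr2:43223448-43223477 (-): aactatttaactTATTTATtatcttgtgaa
BTG3, chr21:17593831-17593860 (-): attggacttgagTATTTATatattgtgcat
The ZFP36 window was the one that held a pair of heptamers. Coordinates are of hg38, and a match describes letters only, not binding.

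In WT control cells the genes were expressed at comparable levels. Per kb of exon, BTG3 stood highest with 51.4 ± 2.12 CPM per kb (SD, n = 3; CPM, read counts scaled to library size with TMM factors), followed by ZFP36 with 43.5 ± 0.595 and ZFP36L1 with 35.7 ± 0.811. ZFP36L2 with 21.9 ± 1.15 and TOB1 with 21.1 ± 1.02 did not differ beyond their spread, nor did TOB2 with 16.5 ± 1.92 and BTG2 with 16.1 ± 0.563. BTG1 was lowest with 11.8 ± 0.508 CPM per kb. These levels compare genes over the merged length of all their listed exons, which can exceed the length of a single transcript, so the order depends on it. Values below are in CPM and compare groups unless given per kb.

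Depth was 22508145 to 50834401 counts per library. The epithelial markers EPCAM, KRT8, KRT18, KRT19 and CDH1 were present in all 24 libraries, at 25.0 CPM or more. Of 10 markers of leukocytes, endothelium, stroma and neurons, 8 stayed at 0.751 CPM or less, and COL1A1 and MAP2 reached 11.5 and 9.06 CPM. IGF2BP1 itself, the transgene, was at 12.1 ± 2.27 CPM in WT control cells and 14.4 to 18.6 in the mutants, and at 29.2 ± 1.15 in WT and 43.2 to 47.1 in the mutants in arsenite. Reads of both disrupted genes remained, with IGF2BP2 at 62.3 to 91.3 and IGF2BP3 at 109 to 166 CPM. One library stood apart. Y396E arsenite replicate 3 had counts in 13897 genes, against at least 20850 in the other libraries, and values of the 8 genes in Y396E arsenite without it are given beside the results. In bulk RNA, fewer cells with a transcript and less of it per cell cannot be told apart.

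**Figure D1:**
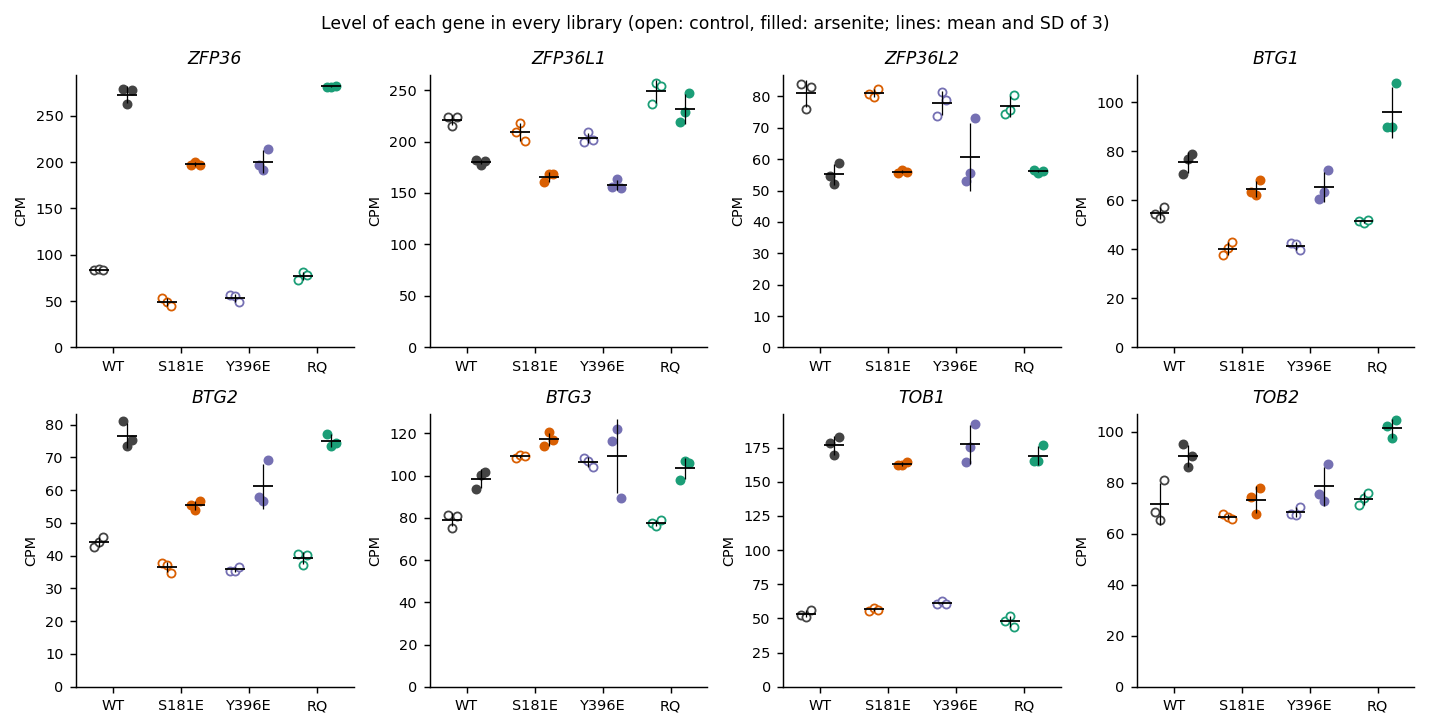
Level in CPM (y axis, linear from 0) of the 8 genes in the 24 libraries by population (x axis), with open points for control, filled points for arsenite, horizontal lines for means and vertical lines for the SD of 3. ZFP36 and TOB1 showed the widest gap between control and arsenite in all 4 populations, and BTG3 had a higher control level in S181E and Y396E than WT.

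The comparison of arsenite with control asked how the stress changes RNA levels in the cleared lysate. CPM are relative to the rest of a library, so neither amounts per cell nor RNA left in the pellet were measured. In WT cells ZFP36 and TOB1 rose more than 3-fold, BTG2, BTG1, TOB2 and BTG3 rose less, and ZFP36L1 and ZFP36L2 fell. A gene was called when edgeR's quasi-likelihood test gave a Benjamini-Hochberg adjusted p under 0.05 over the 9099 genes and the fold change exceeded 1.2, and adjusted p below always has this meaning. Of the 8 genes, 6 were called higher and 2 lower in WT, where 36.3% of all tested genes were called higher and 35.9% lower. In S181E 4 were higher and 2 lower (background 32% and 33.3%), in Y396E 4 and 2 (32.9% in each direction), and in RQ 6 and 1 (37.1% and 35.8%). Since arsenite moved most genes, the count of called genes says less than the size of the changes. The median change of the 8 genes was 0.40 on the log2 scale in WT, against -0.01 over all genes.

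**Figure D2:**
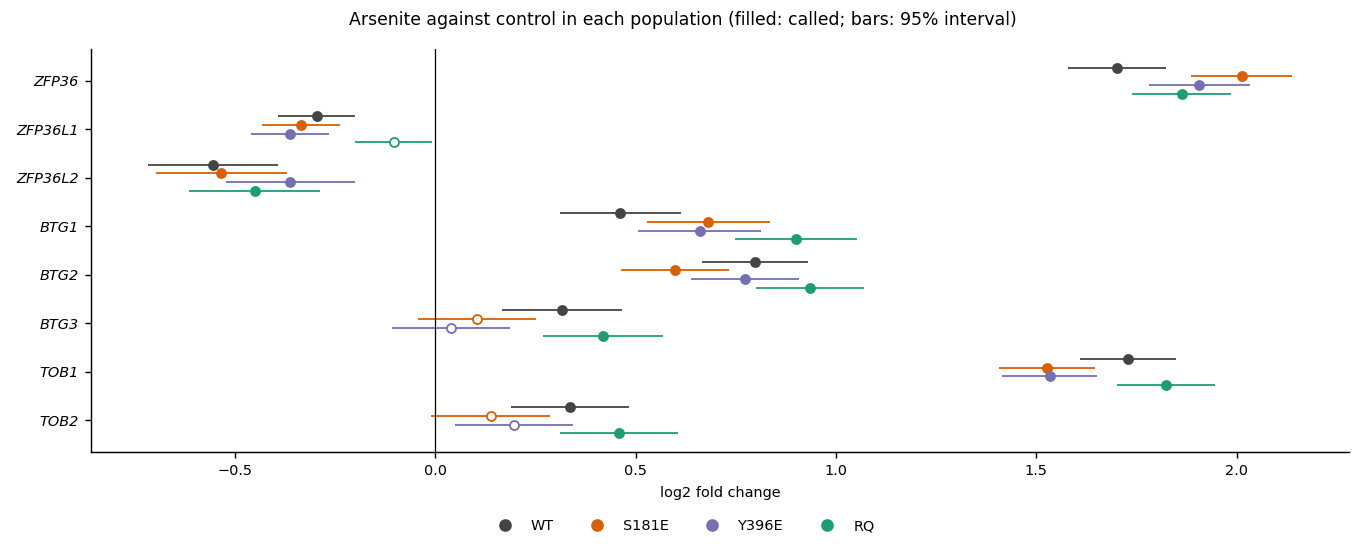
log2 fold change of arsenite against control (x axis) of the 8 genes in the 4 populations, with 95% intervals and filled points for calls. ZFP36 and TOB1 lay above 1.5 in every population, and ZFP36L1 and ZFP36L2 were the genes below 0.

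ZFP36 (ENSG00000128016.8, chr19:39406847-39409407, plus strand, 4 listed exons) was at 83.4, 85.2 and 83.1 CPM in the WT control libraries and at 278.8, 262.5 and 277.5 in arsenite. The S181E libraries had 53.2, 49.4 and 44.9 CPM in control and 197, 200.5 and 196.8 in arsenite. Every arsenite library stood above every control library of its population. The rise was 3.25-fold in WT (log2 1.70 ± 0.06 (SE), adjusted p = 3.4e-18), 4.04-fold in S181E (2.01 ± 0.06, 3.31e-19), 3.75-fold in Y396E (1.91 ± 0.06, 9.74e-19) and 3.64-fold in RQ (1.86 ± 0.06, 6.14e-19). Without Y396E arsenite replicate 3 the Y396E rise of ZFP36 was 1.86. It ranked 222nd from the top of 9099 genes in WT and 48th in S181E.

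TOB1 (ENSG00000141232.5, chr17:50862223-50867978, minus strand), an antiproliferative adaptor of CCR4-NOT, rose about as much as ZFP36 in WT and RQ and less than ZFP36 in S181E and Y396E. Its WT libraries had 52.6, 51.1 and 56.1 CPM in control and 178.1, 169.3 and 182.8 in arsenite, and the groups did not overlap in any population. It rose 3.32-fold in WT (log2 1.73 ± 0.06, adjusted p = 1.77e-18), 2.88-fold in S181E, 2.90-fold in Y396E and 3.54-fold in RQ. The log2 rise of TOB1 in Y396E was 1.53 ± 0.06, and 1.47 without arsenite replicate 3. TOB1 ranked 206th in WT and 183rd in S181E. An antisense gene, TOB1-AS1, overlaps it on the other strand, and the counting was strand-specific.

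The upstream sequences of ZFP36 and TOB1, which rose most in WT, are shown as the 150 bases before their RefSeq start sites (GRCh38.p14, 5′ to 3′ on the gene's strand). RefSeq gave 9 windows for 7 of the genes and none for ZFP36L2, and TOB1 had 2 starts, of which the downstream one is shown.
ZFP36, chr19:39406697-39406846 (+): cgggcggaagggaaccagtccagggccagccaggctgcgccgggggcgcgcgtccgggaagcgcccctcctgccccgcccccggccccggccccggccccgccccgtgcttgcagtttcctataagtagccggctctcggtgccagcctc
TOB1, chr17:50866355-50866504 (-): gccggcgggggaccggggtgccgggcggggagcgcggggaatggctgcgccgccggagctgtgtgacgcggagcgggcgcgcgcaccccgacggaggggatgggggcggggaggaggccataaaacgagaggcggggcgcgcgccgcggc
Both stretches lie in regions of high GC content, 76.4% and 80.4% of the 250 bases before the start. The windows from 250 bases before to 50 after the start were searched on both strands for TGACGTCA (the cAMP response element), TGANTCA (AP-1), GAANNTTC (the core of a heat shock element), the CArG box of serum response factor and the p53 decamer. Neither printed window held any of these, so no letters are in capitals. Over the 9 windows of the 7 genes there were 2 matches, both in the downstream ZFP36L1 window, a TGACGTCA 52 bases before the start and a GAAGTTTC 211 bases before it. Of all 35116 RefSeq windows, 1.85% held the cAMP response element, 6.77% the heat shock core, 7.71% the AP-1 element, 1.29% the CArG box and 6.63% the p53 decamer. These are descriptions of letters in a short window.

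BTG2 (ENSG00000159388.6, chr1:203305519-203309602, plus strand) and BTG1 (ENSG00000133639.6, chr12:92140278-92145846, minus strand) rose in every population. BTG2 had 42.5, 44.03 and 45.6 CPM in WT control and 81.0, 73.5 and 75.4 in arsenite, a rise of 1.74-fold (log2 0.80 ± 0.06, adjusted p = 3.24e-11). Its log2 rise was 0.60 ± 0.07 in S181E, 0.77 ± 0.07 in Y396E and 0.93 ± 0.07 in RQ. BTG1 had 54.6, 52.6 and 57.3 CPM in WT control and 70.7, 76.8 and 78.8 in arsenite, a rise of 1.38-fold (0.46 ± 0.07, adjusted p = 3.11e-06). The control and arsenite libraries of neither gene overlapped in any population. BTG1 rose by 0.68 ± 0.07 in S181E, 0.66 ± 0.07 in Y396E and 0.90 ± 0.07 in RQ. Without Y396E arsenite replicate 3 the Y396E rise was 0.58 for BTG1 and 0.68 for BTG2. LINC01619 overlaps BTG1 on the same strand, and with the counter's default setting a read within exons of both genes is counted for neither.

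TOB2 (ENSG00000183864.5, chr22:41433494-41446801, minus strand), the paralog of TOB1, and BTG3 (ENSG00000154640.15, chr21:17593653-17612901, minus strand) were the members that changed least in S181E and Y396E. In WT the change of ZFP36L1 was slightly smaller in size, and in RQ it was the smallest. TOB2 had 68.4, 65.5 and 81.2 CPM in WT control and 95.2, 86.4 and 90.4 in arsenite, a rise of 1.26-fold (0.34 ± 0.07, adjusted p = 0.000138). It also rose in RQ, by 0.46 ± 0.07, and was not called in S181E (0.14 ± 0.07, adjusted p = 0.0851) or Y396E (0.20 ± 0.07, adjusted p = 0.0155, under the fold threshold, and 0.11, adjusted p = 0.115, without arsenite replicate 3). BTG3 had 81.3, 75.4 and 81.0 CPM in WT control and 93.5, 100.5 and 101.7 in arsenite, a rise of 1.24-fold (0.32 ± 0.07, adjusted p = 0.00034). It rose in RQ as well, by 0.42 ± 0.07, and was not called in S181E (0.10 ± 0.07, adjusted p = 0.192) or Y396E (0.04 ± 0.07, adjusted p = 0.63). The 3 Y396E arsenite libraries of BTG3 were far apart, at 116.5, 122 and 89.5 CPM, and the lowest was replicate 3. Without that library the Y396E change of BTG3 was 0.17 (adjusted p = 0.00328), still under the fold threshold. Both genes have processed copies elsewhere in the genome (TOB2P1 and BTG3P1), so a part of their reads may have been left uncounted as mapping to several places.

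ZFP36L1 and ZFP36L2 went the other way from ZFP36. ZFP36L1 (ENSG00000185650.10, chr14:68787662-68796249, minus strand) had 224.3, 215.3 and 223.8 CPM in WT control and 181.6, 177.4 and 181.4 in arsenite, and ZFP36L2 (ENSG00000152518.8, chr2:43222402-43226606, minus strand) went from 83.8, 76.0 and 82.9 to 54.6, 52.0 and 58.8. The arsenite libraries of both genes lay below the control libraries without overlap. The log2 change in WT was -0.30 ± 0.05 for ZFP36L1 (adjusted p = 2.87e-06) and -0.55 ± 0.08 for ZFP36L2 (adjusted p = 5.92e-07). ZFP36L1 also fell in S181E and Y396E, by 0.34 ± 0.05 and 0.36 ± 0.05 on the log2 scale (-0.35 in Y396E without arsenite replicate 3), and was not called in RQ (-0.10 ± 0.05, adjusted p = 0.0432, under the fold threshold). ZFP36L2 fell in all populations, by 0.53 ± 0.08 in S181E, 0.36 ± 0.08 in Y396E and 0.45 ± 0.08 in RQ. In Y396E its arsenite libraries were at 53.1, 55.6 and 73.0 CPM, and without replicate 3, the highest, the change was -0.52. With library totals in place of TMM factors, which moved the median of all genes in WT from -0.01 to 0.15, the ZFP36L1 change in WT was -0.14 and no longer called. The gene ENSG00000289626 overlaps ZFP36L1 on the same strand, and a read within exons of both would be counted for neither, as for BTG1.

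The family thus changed its make-up. Of the summed CPM per kb of the 3 genes, ZFP36 made up 43.1 ± 1.18% in WT control and 76.3 ± 0.301% in WT arsenite (SD, n = 3). ZFP36L1 went from 35.3 ± 0.330% to 15.7 ± 0.289%, and ZFP36L2 from 21.7 ± 0.850% to 8.04 ± 0.321%. ZFP36 was the largest share after arsenite in every population. In control cells ZFP36 made up 31.4 ± 1.64% in S181E and 34.0 ± 2.13% in Y396E, where ZFP36L1 was the largest at 41.6 ± 1.05% and 40.2 ± 0.895%. In RQ control cells ZFP36 and ZFP36L1 were about level, at 39.7 ± 0.685% and 39.7 ± 0.131%. The summed level of the family rose from 101.1 ± 1.38 to 185.5 ± 5.81 CPM per kb in WT. Of the TOB pair, TOB1 made up 56.2 ± 1.62% in WT control and 77.0 ± 0.694% in WT arsenite. The shares divide by the merged length of all listed exons, 1928 bases for ZFP36, 6199 for ZFP36L1 and 3693 for ZFP36L2. Which gene was largest in WT control cells depends on this choice. In CPM, ZFP36L1 was above ZFP36 there, at 221 ± 5.03 against 83.9 ± 1.15. These are shares of RNA and do not show protein.

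**Figure D3:**
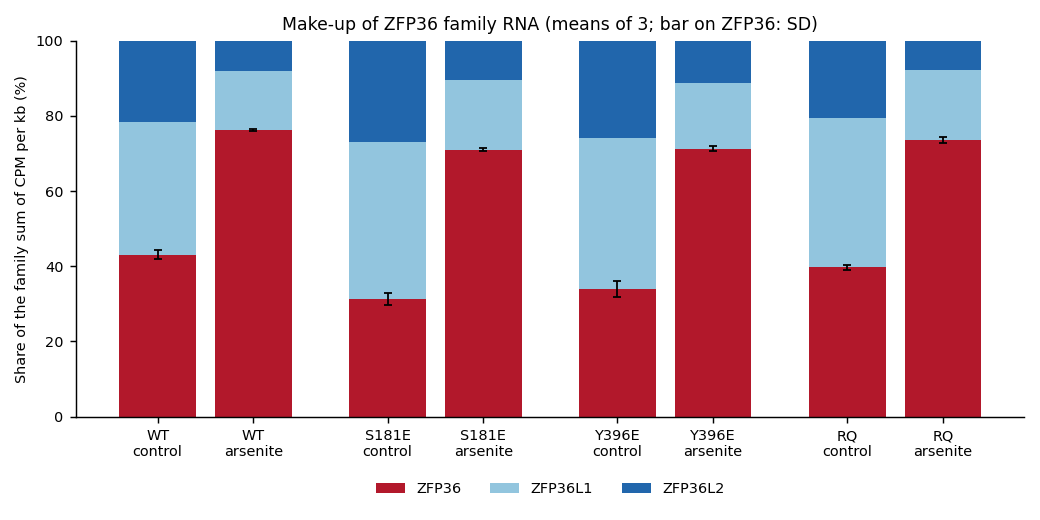
Mean share (y axis, % of the summed CPM per kb) of ZFP36, ZFP36L1 and ZFP36L2 in the 8 groups of 3 libraries (x axis), with the SD of the ZFP36 share. ZFP36 took 31.4% to 43.1% in control groups and 71.1% to 76.3% in arsenite groups.

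The comparisons with WT asked which RNA levels go with the IGF2BP1 mutations. In control cells S181E and Y396E had less ZFP36, BTG1 and BTG2 RNA than WT and more BTG3 RNA, whereas RQ had no called difference among the 8 genes. Of the 8 genes 1 was called higher and 3 lower in each of S181E (background 15.7% and 15.4%) and Y396E (14.5% and 14.2%). Both comparisons use the same WT libraries, so their like changes are not independent. For RQ the background was 1% higher and 0.429% lower, and 0 of the 8 genes were called in edgeR's quasi-likelihood test or with DESeq2. ZFP36L1, BTG2 and TOB1 had an unadjusted p under 0.05 there, with log2 changes of 0.17, -0.17 and -0.16.

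**Figure D4:**
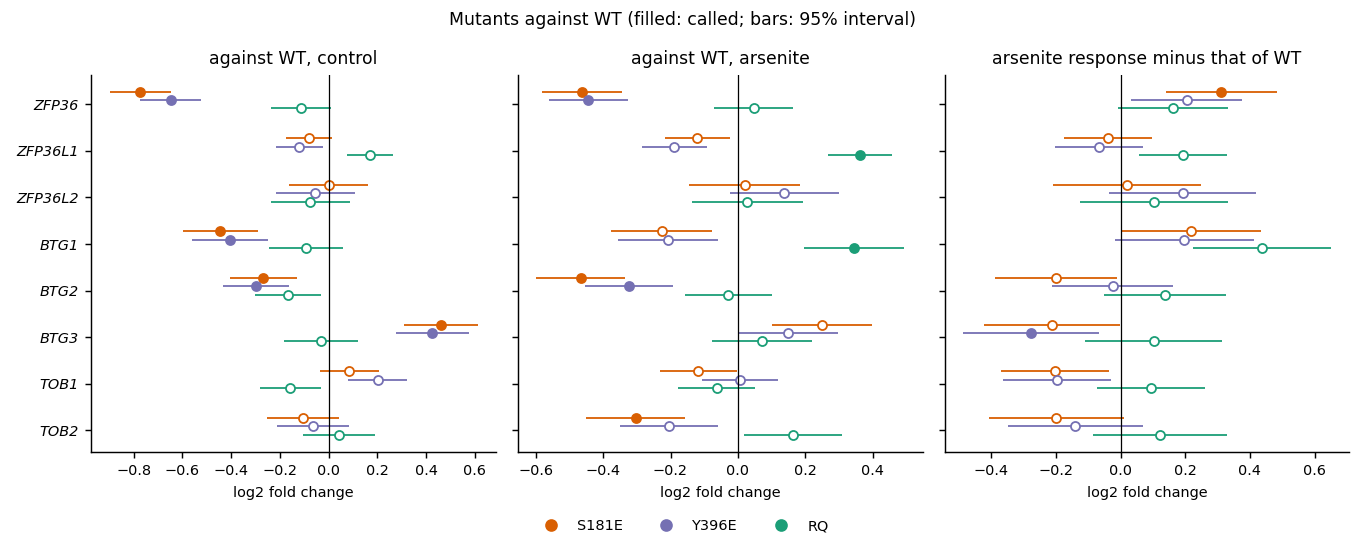
log2 fold change (x axis) of the 8 genes in S181E, Y396E and RQ against WT in control (left) and arsenite (middle), and the difference of their arsenite response from that of WT (right), with 95% intervals and filled points for calls. In control cells ZFP36, BTG1 and BTG2 lay below 0 and BTG3 above 0 in S181E and Y396E.

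ZFP36 stood lowest relative to WT. The Y396E control libraries had 56.9, 55.1 and 48.7 CPM and the RQ libraries 72.7, 81.2 and 78.6, beside 83.1 to 85.2 in WT and 44.9 to 53.2 in S181E. The S181E and Y396E values lay below all WT and RQ values. The level was 0.585 of WT in S181E (log2 -0.77 ± 0.06, adjusted p = 3.18e-10) and 0.638 of WT in Y396E (-0.65 ± 0.06, adjusted p = 8.04e-09). In RQ the change was -0.11 ± 0.06, with a 95% interval from -0.24 to 0.01. ZFP36 ranked 153rd from the lowest of 9099 genes in S181E and 215th in Y396E control cells.

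BTG1 had 37.6, 40.4 and 42.8 CPM in S181E control and 42.6, 42.1 and 39.6 in Y396E control cells, below the 52.6 to 57.3 of WT and the 50.8 to 51.9 of RQ. Its log2 change was -0.45 ± 0.08 in S181E (adjusted p = 3.38e-05) and -0.40 ± 0.08 in Y396E (0.000122). BTG2 had 37.7, 37.2 and 34.8 CPM in S181E and 35.4, 35.4 and 36.6 in Y396E, below the 42.5 to 45.6 of WT. The RQ libraries of BTG2, at 40.4, 37.2 and 40.2, also lay below WT, and the lowest of them fell among those of S181E. BTG2 changed by -0.27 ± 0.07 in S181E (adjusted p = 0.00175) and by -0.30 ± 0.07 in Y396E (0.000802), close to the fold threshold of 0.26. The S181E call was lost without WT control replicate 3 (-0.24) and without S181E control replicate 3 (-0.23), and with library totals only both calls were lost, at -0.11 in S181E and -0.17 in Y396E.

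BTG3 went the other way from BTG1 and BTG2. It had 108.3, 109.9 and 109.1 CPM in S181E control and 108.5, 107.1 and 104 in Y396E control cells, above all WT values (75.4 to 81.3) and RQ values (76.3 to 78.8). The level was 1.38 times that of WT in S181E (log2 0.46 ± 0.07, adjusted p = 1.49e-05) and 1.34 times in Y396E (0.43 ± 0.07, adjusted p = 4.68e-05). BTG3 in control S181E and Y396E cells was thus above the level WT cells reached in arsenite, 93.5 to 101.7 CPM. TOB1 was not called in S181E (0.09 ± 0.06) and missed the fold threshold in Y396E (0.20 ± 0.06, adjusted p = 0.00764), although its Y396E libraries lay above those of WT. With library totals only TOB1 was called higher in Y396E, at 0.33. ZFP36L2 changed by 0.00 ± 0.08 in S181E and -0.05 ± 0.08 in Y396E, with 95% intervals from -0.16 to 0.16 and from -0.22 to 0.11.

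Other measures differed between the same libraries. The share of counts in protein-coding genes was 94.7% to 95.9% in S181E and Y396E control libraries and 89.5% to 91.7% in WT and RQ control libraries. This moved with the differences from WT, and its part in them was not tested. The IGF2BP1 transgene level in control cells was 18.6 ± 1.56 CPM in S181E, 16.5 ± 1.18 in Y396E, 14.4 ± 1.91 in RQ and 12.1 ± 2.27 in WT. The transgene level in arsenite was 47.1 ± 0.863 CPM in RQ, 43.3 ± 0.688 in S181E, 43.2 ± 1.26 in Y396E and 29.2 ± 1.15 in WT. The part of the transgene level in the differences from WT was not tested. In arsenite the protein-coding share was 97.0% to 97.4% in WT and RQ and 98.0% to 98.3% in S181E and Y396E.

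In arsenite ZFP36 and BTG2 stayed lower in S181E and Y396E than in WT. ZFP36 had 197, 200.5 and 196.8 CPM in S181E and 196.4, 191.2 and 214.2 in Y396E, all below the 262.5 to 278.8 of WT, while RQ had 281.4, 281.6 and 282.7. The log2 change was -0.46 ± 0.06 in S181E (adjusted p = 1.03e-06) and -0.44 ± 0.06 in Y396E (1.37e-06), and 0.05 ± 0.06 in RQ (95% interval -0.07 to 0.16). BTG2 was lower by 0.47 ± 0.06 on the log2 scale in S181E (4.76e-06) and by 0.32 ± 0.06 in Y396E (0.000318). TOB2 was lower in S181E, with 74.3, 67.6 and 78.1 CPM against 86.4 to 95.2 in WT (-0.30 ± 0.07, adjusted p = 0.00265). That call was lost without S181E arsenite replicate 2 (-0.25). In all 3 of the 8 genes were called lower in S181E and 2 in Y396E, and 0 higher in either, beside a background of 8.42% lower and 5.32% higher in S181E and of 11.9% lower and 9.77% higher in Y396E.

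The Y396E arsenite comparison depended on replicate 3. With it, ZFP36 and BTG2 were called. Without it the calls were 5, with ZFP36 at -0.49, BTG2 at -0.42, BTG1 at -0.29 (adjusted p = 0.00157), TOB2 at -0.29 (0.00111) and BTG3 at 0.28 (6.02e-05). BTG1 and BTG3 were thus on the same side of WT as in control cells in that fit.

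RQ arsenite cells differed from WT in other members of the families. ZFP36L1 was higher, with 218.5, 228.4 and 247.1 CPM against 177.4 to 181.6 (log2 0.36 ± 0.05, adjusted p = 1.46e-05), and ranked 92nd from the top of 9099 genes. BTG1 was higher, with 89.7, 90.0 and 107.7 CPM against 70.7 to 78.8 (0.34 ± 0.07, adjusted p = 0.00641), and ranked 107th. The groups did not overlap for either gene, and 1.36% of all genes were called higher and 0.154% lower. The ZFP36L1 call held without any single library. The BTG1 call was lost without WT arsenite replicate 1 (0.30, adjusted p = 0.0721), without RQ arsenite replicate 3 (0.25, 0.145) and with library totals only (0.30, 0.0784).

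The difference between the arsenite responses asked whether a population responded more or less than WT. For ZFP36 the S181E response exceeded that of WT by 0.31 ± 0.08 on the log2 scale (adjusted p = 0.0126), from a lower control level to a lower arsenite level. It was the one gene of the 8 called higher for S181E, and 0 were called lower, where 6.98% and 9.41% of all genes were called. The call was lost without S181E control replicate 3, the library with the lowest ZFP36 level of 44.9 CPM (0.25, under the fold threshold), and with library totals only (0.20, adjusted p = 0.0932). In Y396E the ZFP36 difference was 0.21 ± 0.08 (adjusted p = 0.0705), or 0.16 (0.127) without arsenite replicate 3, and in RQ 0.16 ± 0.08 (0.999).

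For BTG3 the Y396E response was smaller than that of WT by 0.28 ± 0.10 (adjusted p = 0.0479), the only call of the 8 genes for Y396E, where 10.3% of all genes were called higher and 11.1% lower. Dropping 1 of the 24 libraries at a time lost that call 20 times (highest adjusted p = 0.125), and without Y396E arsenite replicate 3 the difference was -0.15 (adjusted p = 0.0927). In S181E the BTG3 difference was -0.21 ± 0.10 (adjusted p = 0.146). For RQ 0 of the 8 genes were called in edgeR's test without a block, at a background of 0.22% higher and 0% lower. In that fit ZFP36L1 and BTG1 had an unadjusted p under 0.05. The largest RQ difference among the 8 was that of BTG1, 0.44 ± 0.10 (adjusted p = 0.11), the 31st from the top of 9099 genes. With the replicate number as a block, which pairs RQ and WT libraries, it was 0.43 and called (adjusted p = 0.0192), as it was with DESeq2 (0.43, 0.0299) and without Y396E arsenite replicate 3 (0.43, 0.0111). Differences for TOB1 in S181E and Y396E were -0.20 ± 0.08 each, with adjusted p of 0.0787 and 0.0743. Without Y396E arsenite replicate 3 the Y396E difference of TOB1 was -0.25 (adjusted p = 0.0114), still under the fold threshold.

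The parental cells, described in the study as nonengineered HCT116, had 1 library per treatment and no test, and gave values of the same kind. ZFP36 went from 76.0 to 237 CPM and TOB1 from 48.8 to 152 CPM, counts of 2187 and 8448 and of 1405 and 5408. ZFP36L1 went from 330.3 to 217 CPM and ZFP36L2 from 115 to 66.0. BTG1 went from 59.1 to 70.3, BTG2 from 29.8 to 37.9, BTG3 from 67.4 to 77.1 and TOB2 from 73.0 to 78.4 CPM. All 8 genes thus moved in the direction they had in WT cells, TOB2 and BTG3 by only 0.10 and 0.19 on the log2 scale. The share of all genes with a like direction was not counted. The difference has no replicate check, and IGF2BP1 had 10 and 23 counts in these libraries.

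The 8 genes act with a larger machinery, of which 5 lists and a list of RNAs with known AU-rich elements were counted in WT arsenite. All 14 deadenylase genes were called, 11 higher and 3 lower (median log2 0.51). PAN2, the catalytic subunit of PAN2-PAN3, rose by 1.55 ± 0.13 and CNOT10, a CCR4-NOT subunit, by 1.47 ± 0.09. Of the deadenylases that BTG and TOB proteins bind, CNOT7 fell by 0.71 ± 0.05, whereas CNOT8, named after its values were seen, rose by 0.36 ± 0.08 (adjusted p = 0.000139). CNOT6 fell by 0.54 ± 0.10. Of 12 genes of decapping and 5′ decay 6 were higher and 3 lower (median 0.32), with EDC4 at 1.52 ± 0.08, the exonuclease XRN1 at 1.28 ± 0.10, LSM1 at -0.94 ± 0.07 and the decapping enzyme DCP2 at -0.49 ± 0.10. Of 15 tested exosome and SKI genes 7 were higher and 2 lower (median 0.20), with EXOSC10 at 1.74 ± 0.07, SKIC2 at 1.71 ± 0.10, EXOSC6 at -0.91 ± 0.07 and EXOSC5 at -0.29 ± 0.08.

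Of 7 tested poly(A)-binding genes 3 were higher and 1 lower (median 0.20), LARP4 at 0.83 ± 0.05 and LARP1 at 0.47 ± 0.07 among the former and PABPC1 at -0.58 ± 0.04 as the latter. Of 15 other regulators that bind 3′ UTRs 9 were higher and 2 lower (median 0.40). TIA1, a stress granule protein, rose by 1.12 ± 0.08, the RNase ZC3H12A rose by 1.01 ± 0.10, RC3H2 fell by 1.26 ± 0.08 and AGO2 fell by 0.55 ± 0.06. All genes had a median of -0.01, and 36.3% of them were called higher and 35.9% lower.

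**Figure D5:**
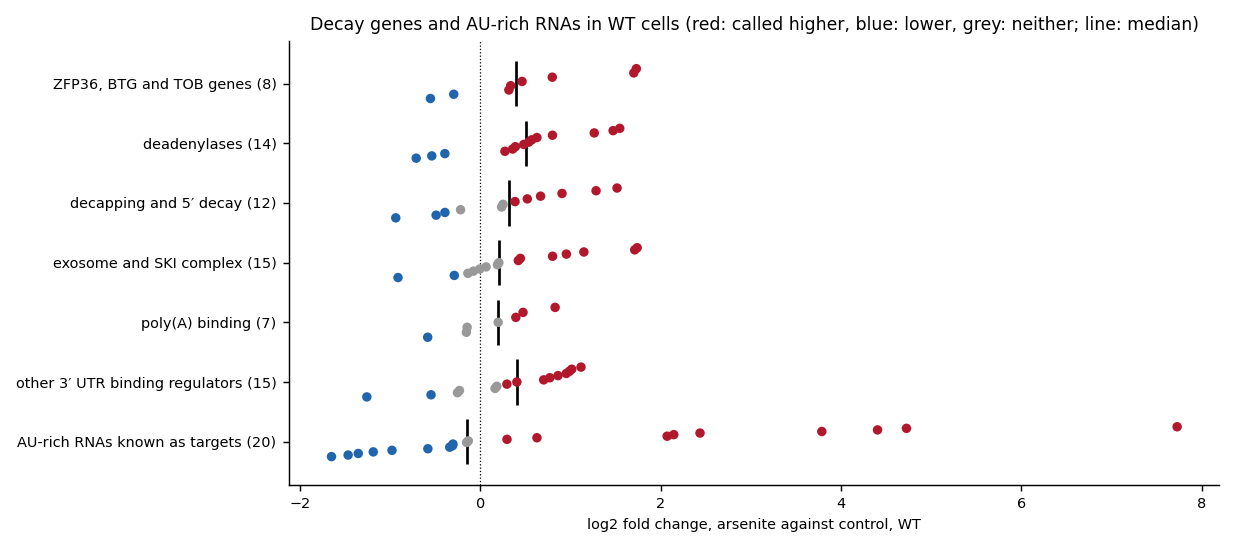
log2 fold change of arsenite against control in WT cells (x axis) of each tested gene of the 8 and of the 6 lists (rows, with the number tested), red for called higher, blue for called lower, grey for neither and black lines for medians. The AU-rich RNAs spread from -1.65 (PLAUR) to 7.73 (FOS), and all 14 deadenylase genes were called.

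Among the RNAs known as targets of AU-rich decay, 20 of 30 were tested and divided evenly in WT arsenite, 9 higher and 9 lower (median -0.14). FOS rose from 5.21 ± 0.925 to 1115 ± 9.76 CPM and JUN from 48.0 ± 7.56 to 1275 ± 31.4. PLAUR, the urokinase receptor, fell from 228 ± 29.5 to 72.5 ± 1.30 and IER3 from 1266 ± 93.1 to 458 ± 15.8. In control cells the list had more lower than higher calls in S181E and Y396E, with 10 of 20 called lower and 3 higher in S181E (median -0.28) and 8 lower and 4 higher in Y396E (median -0.22), against medians of 0.02 and 0.01 over all genes. Of all genes 15.4% were called lower and 15.7% higher in S181E, and 14.2% and 14.5% in Y396E. JUN and PLAUR were lower by 1.23 and 1.01 in S181E and by 1.21 and 0.96 in Y396E on the log2 scale. KLF2 and CCND1, named after their values were seen, were higher, by 0.76 and 0.49 in S181E and by 0.86 and 0.46 in Y396E. In RQ control cells 2 were higher and 1 lower (median -0.01), where 1% of all genes were called higher and 0.429% lower. Against WT in arsenite 3 of the 20 were called higher and 5 lower in S181E (median -0.09). In Y396E arsenite 3 were higher and 1 lower (median -0.06), and in RQ 3 and 0 (median 0.09). Of all genes 5.32% were called higher and 8.42% lower in S181E arsenite, 9.77% and 11.9% in Y396E, and 1.36% and 0.154% in RQ. The arsenite response of the list was called larger than in WT for 9 and smaller for 1 of 20 genes in S181E (median 0.24, against -0.03 over all genes), and for 10 and 2 in Y396E (median 0.22, against -0.02). The shares over all genes were 6.98% larger and 9.41% smaller in S181E and 10.3% and 11.1% in Y396E. In RQ the response was called larger for 2 and smaller for 0 of the 20 (median 0.13, against 0.01), beside 0.22% and 0% of all genes. Response differences use the same control libraries as the control comparisons, so the 2 sets of counts are not independent. The list was chosen with earlier results of these data known, so its counts are a description and not an independent check. All Y396E counts in arsenite and of its response include Y396E arsenite replicate 3. Several genes of the list are immediate early genes, as ZFP36 is, and the part of this in the differences was not tested.

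Over all tested genes, classes by the number of heptamers in the 3′ UTR differed in WT arsenite without a steady order. Of 5820 genes with no TATTTAT 35.1% were called lower, and of 1890 genes with 1 the share was smaller, 32.9%. It was 41.6% of 763 genes with 2 and 44.2% of 608 genes with 3 or more, and the median log2 changes of the 4 classes were 0.00, 0.04, -0.11 and -0.16. In control cells the classes with none and with 3 or more had these shares called lower against WT, 15.5% and 15.3% in S181E and 13.9% and 16.4% in Y396E. In arsenite these shares were 7.08% and 13.8% in S181E and 9.47% and 21.1% in Y396E, the latter with Y396E arsenite replicate 3 included, and 0.0859% and 0.658% in RQ. The shares called higher in arsenite were 5.64% and 5.10% in S181E, 11.1% and 6.74% in Y396E, and 1.22% and 2.96% in RQ. In RQ both classes thus had more genes called higher than lower. The classes differed in length, with median 3′ UTRs of 869, 2062, 2933 and 4430 bases, and the part of length in the differences was not tested. The split was made after the data had been seen and has no test.

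The genes whose log2 CPM followed each of the 8 most closely over the 24 libraries were named by Pearson's r, a description in which control and arsenite libraries form separate clusters. For TOB1 they included NXF1 and BAG6 (r of 0.998 and 0.996), but within the 12 arsenite libraries r was 0.81 and 0.50. For ZFP36 they were IER5L, GRB7 and CPSF1, with r of 0.93, 0.88 and 0.91 within the 12 control libraries and 0.86, 0.90 and 0.97 within the arsenite libraries. The libraries of 1 treatment still fall into populations with different levels, so these r are not free of grouping either. The lowest r within the control libraries was 0.42, for ZFP36L2 and MDM2. BTG2 had CPNE3, HSD17B7 and MCM4, BTG1 had GRHL2, PLA2G6 and BCL10, and ZFP36L2 had SENP5, MDM2 and SH3BP4. ZFP36L1 had KIAA0040, FAM241A and GPX8, BTG3 had APBB1, TENT5B and HPF1, and TOB2 had DCAF8, CAMK2D and GSDMD. The r of these genes over the 24 libraries was 0.92 to 0.998, and a prior count of 0.5 in place of 2 named all of them again.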

How the data were processed

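RNA-seq of 26 libraries was used, 24 of them in the tests (8 groups of 3). The RNA immunoprecipitation libraries were not analysed here. Per the submitters' notes and the file headers, the authors aligned single reads to hg38 with STAR 2.7.11b and counted them per gene on exons with featureCounts (Subread 2.0.6, strand setting 2, GENCODE 46). The deposited unit is counts of reads per gene, with no normalization. Symbols came from GENCODE 44, which matched 62541 of 63086 identifiers (99.1%), and unmatched ones held at most 0.0356% of a library. No pair of replicates held identical counts, and the chi-square statistic per gene was 2.67 to 60.1 over 24 pairs.

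Protein-coding genes above 10 CPM in at least 12 of 24 libraries (9099) were fitted in edgeR 4.0.16 under R 4.3.3, with TMM factors of 0.865 to 1.086, 1 mean per group, 16 residual degrees of freedom and glmQLFit and glmQLFTest, after the study's thresholds (adjusted p under 0.05, fold above 1.2). The common biological coefficient of variation was 0.0682. The 13 comparisons were arsenite against control in each population, each mutant against WT in each treatment, and differences between arsenite responses. The fit was tested on generated counts with known changes. Replicates were independently plated dishes. Deviations of same-numbered RQ and WT libraries correlated at 0.29 to 0.53 in control and 0.15 in arsenite, over 0.1 in every pair, which pairs these samples, and no other comparison met this. The study's labels do not say what a number shares.

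Sequences came from GENCODE 44 and RefSeq (GRCh38.p14). The genes and lists were chosen with earlier results of these data known. Named were the 8 genes, per list at most 2 called rises and 2 called falls in WT arsenite without overlap, and per gene the 3 with the highest r (prior count 2), of which 1 is not reported here. Alternatives were DESeq2 1.42.0, its size factors, library totals only, filterByExpr, no level filter, every gene type together, a fit of just the compared groups, a replicate block, parental libraries added, 2 other fold thresholds and leaving out each library.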

Additional observations from a re-analysis of the deposited data

Results flagged for a closer look

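Differences between the arsenite response of a mutant and that of WT were past the threshold for 2 of the 8 genes. The ZFP36 response of S181E exceeded that of WT by 0.31 on the log2 scale (adjusted p = 0.0126, edgeR quasi-likelihood test), with control levels of 49.1 ± 4.15 CPM in S181E and 83.9 ± 1.15 in WT (SD, n = 3). The BTG3 response of Y396E differed from that of WT by -0.28 (adjusted p = 0.0479), and by -0.15 without Y396E arsenite replicate 3 (adjusted p = 0.0927). Groups of 3 libraries were too small for the test of single outlying samples.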

How the results depend on the processing

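Over the 8 genes and 13 comparisons, 44 changes were called, and 0 called changes turned their direction under the 35 alternatives. Apart from the other fold thresholds, 37 of the 44 stayed called under every alternative, and the 7 others were ZFP36L1 in WT arsenite, BTG2 in S181E and Y396E control, TOB2 in S181E arsenite, BTG1 in RQ arsenite and both called response differences, with values given above. BTG2 in S181E control was also lost with edgeR's own filter (-0.26) and with all gene types (-0.26), both under the fold threshold. With a fold above 1.5, the called genes of the 8 numbered 3 and 4 for arsenite in WT and RQ, 1 each for S181E and Y396E control, and 0 for S181E, Y396E and RQ in arsenite and for the S181E and Y396E responses. With no fold threshold they numbered 5 for S181E and 5 for Y396E in arsenite. Library totals only gave 1 for RQ arsenite, 3 for the S181E response (BTG2, BTG3 and TOB1 lower) and 2 for the Y396E response. They moved the median of all genes from 0.02 to 0.18 in S181E control. For the Y396E response, the count was 0 with RLE size factors, edgeR's own filter, no filter, only the groups compared and DESeq2. For the RQ response it was 1 with the replicate block and 1 with DESeq2, where the block calls BTG1. The block changed no other call among the 8 genes.

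Leaving out each library in turn gave 2 to 5 called genes for Y396E arsenite, 1 to 2 for RQ arsenite, 0 to 2 for the S181E response, 0 to 1 for the Y396E response and 0 to 1 for the RQ response. The S181E response lost its call without S181E control replicate 3 and gained TOB2 (-0.30) without WT control replicate 3. BTG1 and BTG3 in S181E arsenite (-0.23 and 0.25) passed the fold threshold when certain single libraries were left out, BTG1 without WT arsenite replicate 1 or S181E arsenite replicate 3 and BTG3 without WT arsenite replicate 2 or 3 or S181E arsenite replicate 1. Among changes not called, 41 values of 17 changes had another sign in an alternative. Each of the 8 genes had at least 858 counts in every library.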
